A study of Homo sapiens with 9 samples.

Results

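RNAPII ChIP-seq peaks that were called in cells overproducing RECQL5 and that no peak of the uninduced cells touched are described here. The peaks were chosen by the positions of called peaks in the same pair of libraries: a doxycycline peak was taken when no no-doxycycline peak overlapped it by 1 bp or more. The rule left 12956 doxycycline-only peaks, 38.2% of the 33900 doxycycline peaks, among 142069 peaks in the 5 RNAPII lists of the series. The other 20944 doxycycline peaks are called shared, and 25581 of the 47060 no-doxycycline peaks had no doxycycline peak on them.

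Both libraries came from HEK293 T-REx cells, a human embryonic kidney line, transfected with the pcDNA4/TO-RECQL5 plasmid, which carries full-length RECQL5 behind a doxycycline-inducible promoter. The cells received 0.0 or 1.0 ng/ml doxycycline, and the endogenous RECQL5 gene was left in place in both. The 3 hairpin libraries came from HEK293 cells infected with lentivirus carrying a control, RECQL5 shRNA 5 or RECQL5 shRNA 7. They are called the control, shRNA5 and shRNA7 lists here, and the paper's methods describe the control as an empty vector. Every group was 1 library, so the values below compare single libraries and no test between conditions was possible. The intervals in brackets are at the 95% level (Wilson intervals for shares, order-statistic intervals for medians) and cover counting error only. Doxycycline also differs between the libraries apart from RECQL5, and the drug and the protein cannot be told apart in this design.

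RNAPII starts transcription at promoters, commonly pauses shortly after initiation, and then moves through the gene body until it is released past the gene end. ChIP-seq records where the polymerase sits on DNA, so a site where polymerases dwell gathers more reads than its surroundings and can be called as a peak. RECQL5 is a DNA helicase of the RecQ family that binds RNAPII and can slow transcription in vitro, and the doxycycline arm asks how RNAPII is distributed when RECQL5 is in excess. In bulk ChIP, more cells with a polymerase at a site and more polymerase per cell cannot be told apart.

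The sequence at the summits of strong doxycycline-only peaks is shown first, because base composition was one of the features in which the set differed from the shared peaks. Each line holds 200 bases centred on the summit from the GRCh37 (hg19) plus strand, with every CG in capitals. The first 3 are introns that hold peaks among the 10 with the highest significance scores.
SUV39H2, chr10:14938565-14938764: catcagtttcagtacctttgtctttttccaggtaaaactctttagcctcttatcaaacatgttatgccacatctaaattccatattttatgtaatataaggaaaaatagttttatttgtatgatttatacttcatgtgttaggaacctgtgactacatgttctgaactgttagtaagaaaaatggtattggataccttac
MYBL2, chr20:42323316-42323515: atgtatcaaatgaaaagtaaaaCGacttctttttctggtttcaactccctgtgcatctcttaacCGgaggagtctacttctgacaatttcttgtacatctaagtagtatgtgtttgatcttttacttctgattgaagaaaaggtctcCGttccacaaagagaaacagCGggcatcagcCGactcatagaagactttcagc
NUP155, chr5:37327975-37328174: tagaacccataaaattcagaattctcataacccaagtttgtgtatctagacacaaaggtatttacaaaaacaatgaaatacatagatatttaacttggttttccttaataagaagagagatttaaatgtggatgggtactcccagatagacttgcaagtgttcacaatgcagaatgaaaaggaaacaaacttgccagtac
These windows were 69.5%, 60.5% and 67.0% AT, and they held 0, 5 and 0 CG dinucleotides. The next line comes from a peak at USP36, among the strongest doxycycline-only peaks that touched a promoter window.
USP36, chr17:76796684-76796883: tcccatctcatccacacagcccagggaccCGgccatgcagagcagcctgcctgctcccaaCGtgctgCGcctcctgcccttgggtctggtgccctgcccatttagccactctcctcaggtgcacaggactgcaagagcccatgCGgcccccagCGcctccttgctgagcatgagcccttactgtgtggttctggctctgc
This window was 35.5% AT with 5 CG dinucleotides. The lines show AT-rich intronic sequence at the first 3 summits and GC-rich sequence at USP36.

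Doxycycline-only peaks were small. Their median length was 535 bp (531 to 539), against 856 bp (848 to 865) for shared peaks, and they held a median of 16.0 tags against 32.0, a tag being 1 sequenced read counted within the peak. The significance score, the negative log10 of the peak's p-value multiplied by 10, had a median of 62.4 against 129, close to the lowest score in the list, 50. Fold enrichment over background had a median of 8.48 against 10.6. Tag density differed less, at 30.2 tags per kb against 35.8. The whole set held 252150 tags, 16.4% of the tags in the doxycycline list, over 8.04 Mb, 23.9% of its length. Peaks seen without doxycycline alone were of like length and score, with medians of 529 bp and 63.0. Shared no-doxycycline peaks had medians of 907 bp and 155. Short length and a low score were thus found in the unshared peaks of both lists. These values come from the lists that chose the peaks and are a description of them.

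The share of doxycycline peaks without a no-doxycycline partner depended on how strong they were. It was 66.8% (65.8 to 67.8) for scores of 50 to 60, 56.8% for 60 to 75, 42.9% for 75 to 100 and 22.6% for 100 to 200. Of the 4080 peaks that scored 200 to 400, 215 (5.27%) were doxycycline-only, and of the 3310 that scored 400 or more, 15 (0.453%). Only 65 of the 5000 strongest doxycycline peaks (1.30%) belonged to the set, the first of them at rank 1288. The no-doxycycline list required fewer tags of a peak, 9 at the lowest against 11 with doxycycline.

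**Figure D1:**
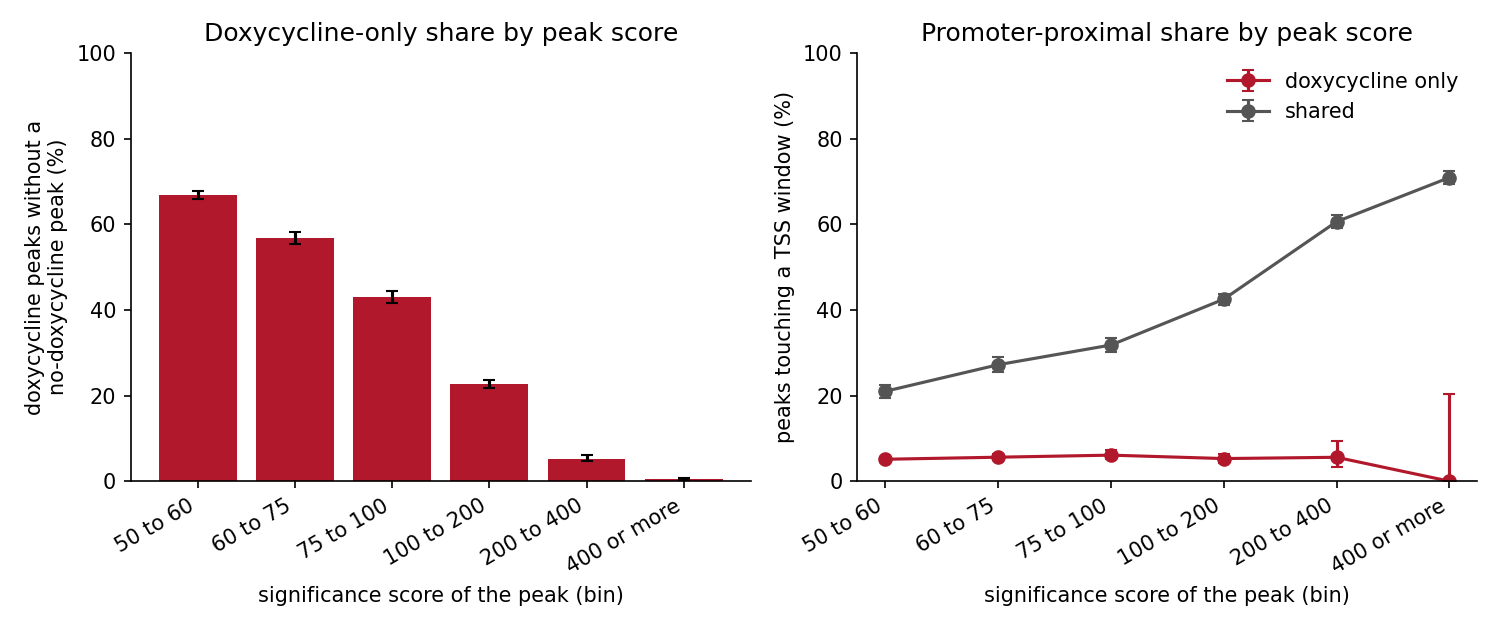
Left, share of doxycycline peaks that no no-doxycycline peak overlapped (y axis, %) by bin of significance score (x axis). Right, share of doxycycline-only (red) and shared (grey) peaks within reach of a TSS window of 500 bp to each side (y axis, %) in the same bins. Bars and whiskers are single-library shares with 95% Wilson intervals. The left share goes from 66.8% in the weakest bin to 0.453% in the strongest, while the red line at right stays at or below 6.08% and the grey line goes from 21.0% to 70.9%.

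Most doxycycline-only peaks had an RNAPII peak of uninduced cells within 5 kb. Gaps are given for this set alone, so these distances have no baseline beside them. The median gap to the closest no-doxycycline peak was 1.85 kb. It was at most 500 bp for 22% of the set and at most 1 kb for 35.4%. At 5 kb, 71.5% had a no-doxycycline peak in reach, and 130 peaks (1.00%) had none within 100 kb. The edge of the rule ran through neighbouring values. The doxycycline-only peaks in DDX11, ANKLE2 and ZNF592 abutted a no-doxycycline peak with 0 bp of gap, and had 11, 17 and 31 tags. Peaks in GPBP1L1, UBR1 and NF1 overlapped one by 1 bp, were called shared, and had 34, 12 and 22 tags.

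The hairpin libraries were not used by the rule, and they give a separate view of the same sites. A control peak overlapped 467 doxycycline-only peaks, or 3.60% (3.30 to 3.94), against 18.5% of all doxycycline peaks and 27.8% of the shared ones. This share rested on what counted as shared, as it was 11.6% where shared peaks had to overlap by at least 50% of both, 11.2% by summits within 500 bp, and 1.41% for peaks with no no-doxycycline peak within 1 kb. Peaks of the shRNA5 list overlapped 4262 of them, 32.9% (32.1 to 33.7), against 57.8% of all doxycycline peaks. Peaks of the shRNA7 list overlapped 6127, 47.3% (46.4 to 48.2), against 67.2%. None of the 3 lists reached 6019 of the set, 46.5% (45.6 to 47.3), against 24.9% of all doxycycline peaks and 11.5% of the shared ones. The fewest tags of any control, shRNA5 and shRNA7 peak were 35, 27 and 26, while doxycycline-only peaks had a median of 16.0. The deposited lists held 5287, 23698 and 32124 peaks, fewer than the paper's rounded counts for wild-type, shRNA5 and shRNA7 cells. A site in no hairpin list may thus still hold RNAPII below the calling limit.

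The control list covered 0.459% of the genome, the shRNA5 list 2.05% and the shRNA7 list 3.39%, so the order of the overlaps followed the order of the covered lengths. Doxycycline-only peaks seen with both RECQL5 hairpins and not with the control numbered 3100 (23.9%), a smaller share than the 34.4% of all doxycycline peaks and 40.9% of shared ones. All 3 hairpin lists held a peak at 369 of them (2.85%), against 23.8% of shared peaks. The peaks seen without doxycycline alone overlapped the control list in 3.72%, the shRNA5 list in 26.6% and the shRNA7 list in 43.2%.

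The hairpin overlap of doxycycline-only peaks was below that of shared peaks also at like strength. For scores of 75 to 100, an shRNA7 peak lay on 54.0% (51.9 to 56.1) of the doxycycline-only peaks and on 75.3% (73.6 to 76.8) of the shared ones. For scores of 100 to 200 the shares were 61.2% and 81.2%. The shRNA5 overlap in these bins was 39.6% and 46.7% for doxycycline-only peaks, and 60.8% and 73.3% for shared peaks. Within gene bodies alone, shRNA7 peaks lay on 46.5% of the doxycycline-only peaks and on 71.3% of the shared ones.

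**Figure D2:**
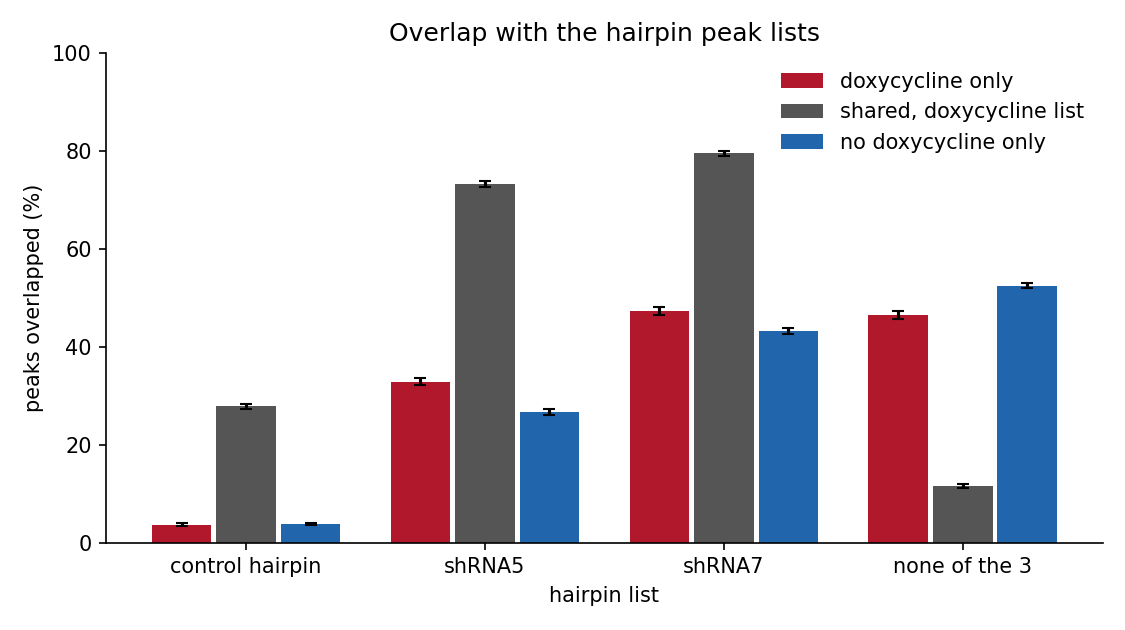
Share of peaks (y axis, %) overlapped by 1 bp or more by a peak of the control, shRNA5 or shRNA7 list, or by none of the 3 (x axis), for doxycycline-only peaks (red), shared doxycycline peaks (grey) and peaks seen without doxycycline alone (blue). Whiskers are 95% Wilson intervals of single libraries. The red bars stand at 3.60%, 32.9%, 47.3% and 46.5%, and the grey bars at 27.8%, 73.2%, 79.5% and 11.5%.

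Doxycycline-only peaks lay in gene bodies. Promoter-proximal peaks were those reaching within 500 bp of the start (the transcription start site, TSS) of any protein-coding transcript, and gene-body peaks the others that touched such a transcript. Of the set, 702 peaks (5.42%, 5.04 to 5.82) were promoter-proximal, against 29.3% of all doxycycline peaks and 44.1% of the shared ones. Gene-body peaks numbered 11089 (85.6%, 85.0 to 86.2), against 60.8% and 45.5%. The remaining 1165 peaks (8.99%) lay outside both, against 9.82% of all doxycycline peaks. Peaks seen without doxycycline alone were promoter-proximal in 12.4% and gene-body in 69.8%.

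The promoter share of doxycycline-only peaks hardly varied with score, and it was 7.35% at a fold enrichment of at least 10. Doxycycline-only peaks were promoter-proximal in 5.12% at scores of 50 to 60 and in 5.58% at scores of 200 to 400, and in these bins shared peaks were so in 21.0% and 60.6%. None of the 15 at 400 or more was promoter-proximal. Of the 702 promoter-proximal peaks, 255 (36.3%) reached within 500 bp of the TSS of a gene's longest coding transcript, and the others reached only the window of an alternative start. Among shared promoter-proximal peaks, 81.0% reached the TSS window of the longest transcript. In gene bodies the summit fell in an exon for 12.6% of the doxycycline-only peaks and 19.8% of the shared ones. For peaks seen without doxycycline alone the exon share was 13.7%, so it was low in the unshared peaks of both lists. Of the peaks outside promoters and gene bodies, 445 (3.43% of the set, against 3.19% of all doxycycline peaks) lay within 5 kb past a gene end. A further 66 (0.509%, against 0.664%) lay within 5 kb before a TSS, and 60 (0.463%, against 0.528%) within both. Of the rest, 278 (2.15%, against 2.72%) lay in a long non-coding RNA gene and 316 (2.44%, against 2.72%) further away.

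Along genes of at least 10 kb the doxycycline-only summits were spread almost evenly. The first 5% of gene length held 4.19% (3.82 to 4.58) of 10652 summits, and the last 5% held 6.08%. Shared summits had 30.7% of 13251 in the first 5%, and the summits seen without doxycycline alone had 9.66% of 17614. The median distance from the TSS was 27.7 kb (27.1 to 28.3) for doxycycline-only peaks, 11.3 kb for shared peaks and 19.6 kb for peaks seen without doxycycline alone.

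**Figure D3:**
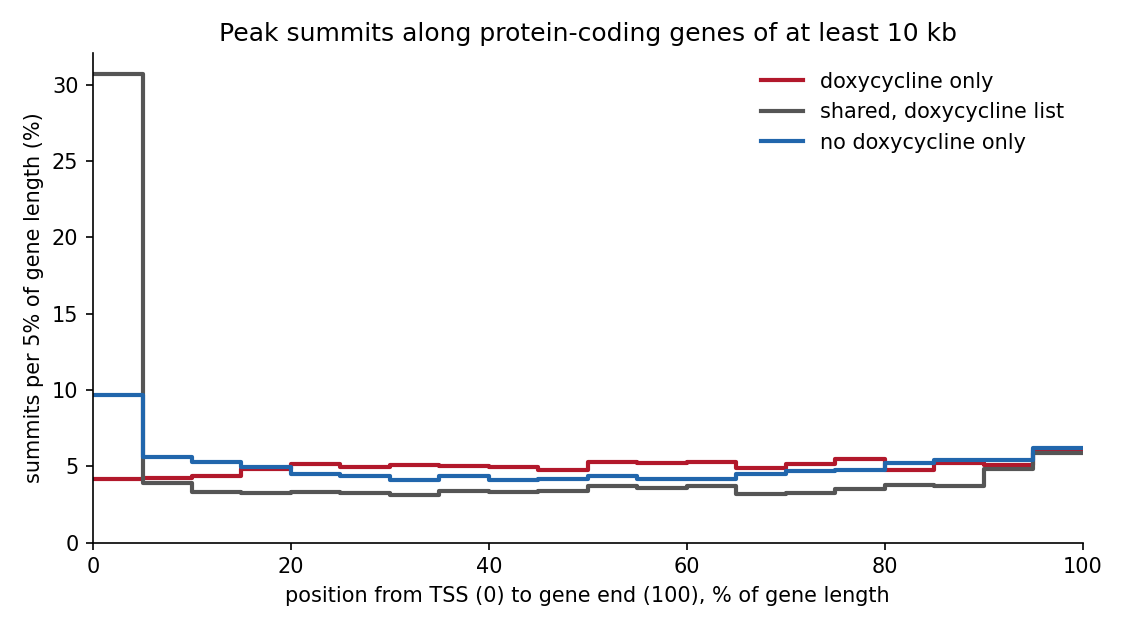
Share of summits (y axis, %) in each 5% of gene length from the TSS to the gene end (x axis, %), for protein-coding genes of at least 10 kb. The red line is doxycycline-only peaks, the grey line shared doxycycline peaks and the blue line peaks seen without doxycycline alone. In the first 5% the lines stand at 4.19%, 30.7% and 9.66%, and the red line stays near this level to the gene end, where it is at 6.08%.

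Long genes gave a larger share of doxycycline-only peaks than short ones. Over peaks whose summit lay in a single gene, 264 of 1985 doxycycline peaks in genes under 10 kb were doxycycline-only (13.3%, 11.9 to 14.9). The share was 34.7% for genes of 10 to 50 kb, 52.4% for 50 to 100 kb, 57.0% for 100 to 300 kb and 55.8% (51.9 to 59.6) for 300 kb or longer. The share of no-doxycycline peaks without a doxycycline peak was 42.8% under 10 kb and 74.0% at 300 kb or longer, so both lists had more unshared peaks in long genes.

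The sequence around doxycycline-only summits was richer in AT than around shared summits. Over 2 kb centred on the summit the median AT content was 58.1% (58.0 to 58.2), against 48.8% (48.6 to 49.0) for shared peaks and 53.4% (53.2 to 53.5) for peaks seen without doxycycline alone. Promoters are GC-rich and held more of the shared peaks, so the medians were also taken within each class. Within gene bodies the medians were 58.5%, 55.5% and 55.0% in the same order. At promoters they were 49.0%, 43.5% and 41.6%. The CpG ratio, observed over expected CG dinucleotides, was 0.381 at doxycycline-only promoter peaks and 0.703 at shared ones. By score, stronger doxycycline-only peaks were not less AT-rich, with 57.6% at scores of 50 to 60 and 59.8% (58.7 to 60.8) at 200 to 400. Those with a fold enrichment of at least 10 had a lower median than the whole set, 56.9% against 58.1%. Shared peaks went from 51.6% to 47.4% between these score bins, and their promoter-proximal share went from 21.0% to 60.6%. The intronic windows of SUV39H2 and NUP155 printed above are of this AT-rich kind.

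The strongest doxycycline-only peak lay in an intron of DNAH17, which encodes a heavy chain of axonemal dynein, the motor of cilia and flagella. It spanned chr17:76553030-76555535 and had 145 tags, a score of 785 and a fold enrichment of 22.7. The closest no-doxycycline peak was 102 kb away and had 9 tags. Both RECQL5 hairpin lists held a peak there and the control list did not.

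SUV39H2, a histone H3 lysine methyltransferase, had a peak of 146 tags at chr10:14937928-14941290, 1.58 kb from a no-doxycycline peak of 18 tags. MYBL2, a transcription factor of proliferating cells, had one of 130 tags at chr20:42321902-42325522, and the no-doxycycline peak 0.675 kb away had 12 tags. NUP155, a nuclear pore protein, had 119 tags at chr5:37325574-37328415, and a no-doxycycline peak of 12 tags began almost at its edge. These 3 neighbours show weak RNAPII peaks beside the strong ones.

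MCM10, a DNA replication initiation factor, had a peak of 94 tags, and its no-doxycycline neighbour 0.293 kb away had 22. EZH2, the methyltransferase of the Polycomb repressive complex PRC2, had one of 129 tags, 26.2 kb from a no-doxycycline peak. XRCC5, which encodes the Ku80 protein of DNA end joining, had 90 tags, and E2F2, a cell-cycle transcription factor, had 86. RPF2, a ribosome assembly factor, had a peak of 129 tags, and of these 10 it was the one found in all 3 hairpin lists. The remaining peak, of 107 tags, was the only one of the 10 outside any protein-coding gene. It lay between ZNF226 and ZNF227, and no hairpin list held it. Of the 10 strongest, 9 were thus in introns, and none touched a promoter window.

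The strongest promoter-proximal peaks scored lower, 205 to 267 for the first 10. Of these, 9 reached only the 500 bp window of an alternative start, and 1, of 57 tags at the end of DNAJC8, reached that of the neighbouring gene AL353354.2. One of 61 tags had its summit in a UTR of PHF1, near the PHF1 end, and the nearest start was that of CUTA, 1594 bp from the summit. Others lay within CLTC (clathrin heavy chain, 73 tags), USP36 (52 tags), RNF10 (58 tags), ZNF529 (92 tags), RRM1 (56 tags), OCLN (66 tags) and CNOT1 (52 tags). RRM1 is the large subunit of ribonucleotide reductase, and its peak at chr11:4134997-4136813 was 7.51 kb from a no-doxycycline peak of 12 tags.

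Doxycycline-only peaks were found in many genes. Of 10601 protein-coding genes with a doxycycline peak within 500 bp of them, 4355 (41.1%) held at least 1 doxycycline-only peak. A single one was held by 2102 of these genes (48.3%), 798 held at least 5 and 240 at least 10. Most of the 4355 genes were occupied in both libraries, as 86.6% also had a shared peak. Moreover, 81.1% also had a peak seen without doxycycline alone, so unshared peaks of both lists commonly stood side by side in a gene.

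The genes with the most doxycycline-only peaks were long. DYRK1A, a protein kinase gene of 161 kb, held 50, out of 78 doxycycline peaks, and had 44 peaks without doxycycline. EIF4G3, a translation initiation factor gene of 371 kb, held 47 of 62 and had 31 without. ARID4B (35 of 74), ARIH1 (35 of 71) and SPAG9 (35 of 47) had 54, 42 and 31 no-doxycycline peaks. GBF1 (32 of 43), ATAD2 (31 of 40) and ETFA (29 of 37) had 13, 13 and 18.

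In DNAH17 and EZH2 nearly all doxycycline peaks were doxycycline-only. DNAH17, 154 kb long, held 39 of 40 doxycycline peaks with 904 of 989 tags, and its 2 no-doxycycline peaks had 9 tags each. Those 39 peaks had 11 to 145 tags with a median of 18.0, all lay in the gene body, and they covered 17.1% of the gene. An shRNA5 peak overlapped 36 of them, an shRNA7 peak 10 and a control peak 0. DNAH17 had no peak at the TSS of its longest transcript in either list.

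EZH2, 77.1 kb long, held 29 of 34 doxycycline peaks with 1322 of 1786 tags, and its 5 no-doxycycline peaks, all of them shared, had 246 tags in sum. The 29 peaks had 19 to 129 tags with a median of 31.0 and covered 47.0% of the gene. Of these, shRNA5 peaks overlapped 5, shRNA7 peaks 18 and control peaks 0. At the TSS of EZH2 the lists held 187 tags with doxycycline and 181 without. In DYRK1A, shRNA5 peaks overlapped 35 of the 50 and shRNA7 peaks 46, while its TSS had 104 tags with doxycycline and 110 without. The gene sums count only tags inside called peaks, so reads outside peaks are not in them.

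**Figure D4:**
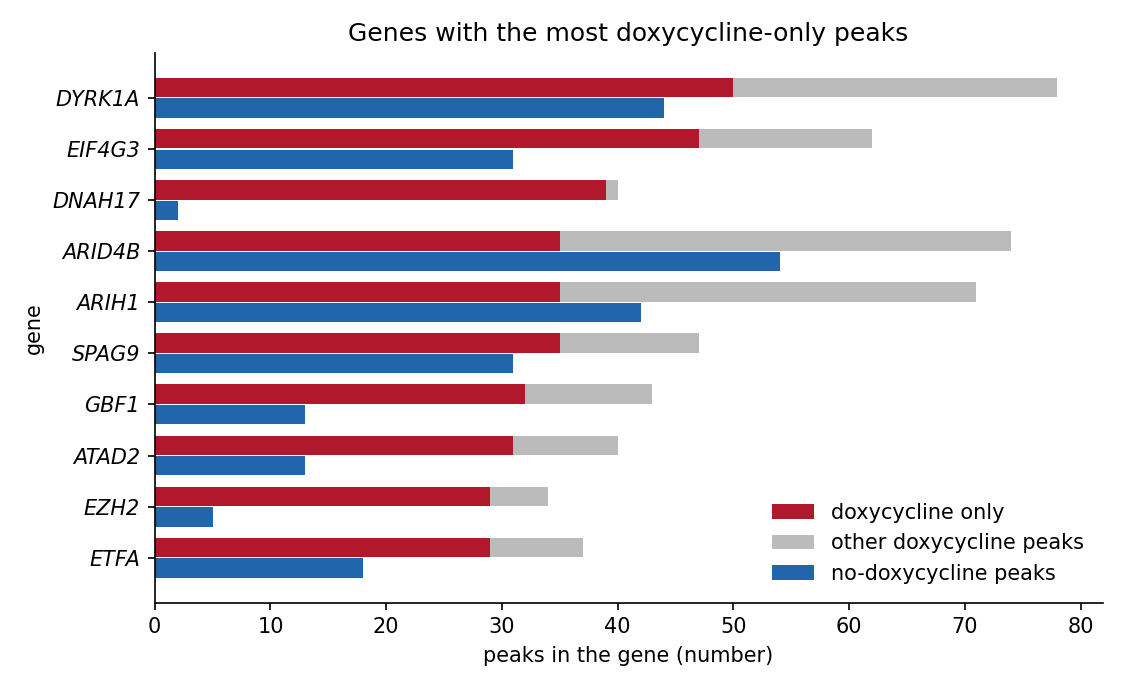
Number of peaks (x axis) in the 10 protein-coding genes (y axis) with the most doxycycline-only peaks. Red is doxycycline-only peaks, grey the other doxycycline peaks, and blue the no-doxycycline peaks of the same gene. DNAH17 has 39 red peaks beside 2 blue, EZH2 has 29 beside 5, and ARID4B has 35 beside 54.

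Tags at promoters were set beside the number of doxycycline-only peaks inside genes, since promoter peaks were mostly shared. For 8484 genes with a peak at the TSS of the longest transcript in both lists, the median ratio of TSS tags, doxycycline over no doxycycline, was 1.00 (0.990 to 1.00). It was 0.979 (0.970 to 1.00) in 5685 genes without a doxycycline-only peak, 1.00 (0.976 to 1.02) in 1189 genes with 1, 1.04 (1.01 to 1.07) in 1014 genes with 2 to 4, 1.07 (1.04 to 1.12) in 401 genes with 5 to 9, and 1.05 (1.02 to 1.12) in 195 genes with 10 or more. These are descriptions of 1 pair of libraries, in which genes are not replicates and the peak numbers come from the same lists. The tags are unnormalised, so a ratio of 1.00 need not mean equal occupancy. Over all pairs of shared peaks that were each other's partner, the median ratio was 1.19. Genes with 10 or more were longer, 83.0 kb in the median against 21.3 kb for genes with none. They also had more TSS tags, 103 with doxycycline and 95 without, against 44 and 46.

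In 185 genes (4.25% of the 4355) no no-doxycycline peak lay in the gene or within 2 kb of it. Of these, 120 (64.9%) had a promoter-proximal doxycycline-only peak, against 16.9% of all 4355. Hairpin peaks were less frequent in them. The shRNA7 list had a peak in 109 (58.9%), against 90.6% of the 4355 genes, the shRNA5 list in 68 (36.8%), against 88.2%, and the control list in 4 (2.16%), against 44.2%. Genes without a no-doxycycline peak were chosen by that absence, so these shares are a description. ANKRD1, a muscle and stress-responsive ankyrin repeat protein, had the most tags, 142 in 6 peaks that ran from its TSS (44 tags) to its end (18 tags) over a gene of 8.99 kb. The 2 peaks closest to the end were overlapped by peaks of both RECQL5 hairpin lists.

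FANCD2OS had 5 such peaks with 64 tags, CCDC73 had 3 with 52 tags that lay about 190 kb from its start, near its far end, and MEGF11 had 3 with 43 tags. PTHLH, the parathyroid hormone-like hormone, had 2 with 41 tags. ZKSCAN3, CIR1 and CARD6 had 1 promoter-proximal peak each, with 45, 41 and 33 tags. NSMCE2 and WASHC5, neighbours on opposite strands, shared 1 peak of 33 tags at their starts, 337 kb from the closest no-doxycycline peak. ChIP reads carry no strand, so where genes overlap or abut, a peak cannot be given to one of them.

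Gene lists of known function were read against the 38.2% of doxycycline peaks and the 41.1% of genes stated above. RNAPII elongation and pause control factors had doxycycline-only peaks in 21 of 38 genes, 98 of their 220 doxycycline peaks (44.5%). AFF4, the scaffold of the super elongation complex, held 11 of 17. CDK12, a kinase of the RNAPII C-terminal domain, held 12 of 28, and SUPT6H, the histone chaperone SPT6, held 8 of 16. The 12 RNAPII subunit genes had 6 of 31 (19.4%), 4 of them in POLR2D.

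RecQ helicases and topoisomerases, which unwind or relax DNA, had doxycycline-only peaks in 5 of 10 genes, 47 of 107 peaks (43.9%). BLM, the helicase mutated in Bloom syndrome, held 26 of 34, and 11 peaks were called in it without doxycycline. TOP1 held 10 of 13, TOP3A 7 of 22 and TOP2A 3 of 18. RECQL5 itself held 0 of 8. Its peaks had 1623 tags with doxycycline and 1171 in 8 peaks without, so the induced library had more. Shared peaks in general also had more tags with doxycycline, by a median ratio of 1.19 over pairs that were each other's partner. The control, shRNA5 and shRNA7 lists held 0, 0 and 1 peaks in RECQL5. Reads from the plasmid and the endogenous gene cannot be told apart. DNA replication genes and E2F targets, a list made after the strongest peaks had been seen, had doxycycline-only peaks in 40 of 60 genes, 245 of 545 peaks (45.0%). After EZH2, the most tags were in DTL (16 of 33 peaks), MCM10 (15 of 23) and POLA1 (23 of 29), all of replication or its licensing.

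Among p53 target genes 6 of 16 held doxycycline-only peaks, 23 of 48 peaks (47.9%), but 18 of the 23 lay in TNFRSF10B, the TRAIL death receptor DR5, which had 22 doxycycline and 7 no-doxycycline peaks. Zinc finger genes of chromosome 19 stood near the background of all chromosomes, with 83 of 188 genes and 182 of 479 peaks (38.0%). Of all doxycycline peaks on chromosome 19, a smaller share, 29.3%, was doxycycline-only. ZNF529, ZNF235, ZNF507 and ZNF850 held 11, 7, 9 and 5.

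Some other gene classes held few. Replication-dependent histone genes had 0 of 44 peaks, and cytosolic ribosomal protein genes 8 of 159 (5.03%), of which 3 lay in RPS27L and 2 in RPL27A. Immediate early genes had 4 of 53 (7.55%), 1 each in ATF3, FOSL1, IER5 and FOSB. Genes that host small nucleolar RNAs had 13 of 73 (17.8%), 6 of them in CWF19L1.

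Stress and metabolic lists also lay below the 38.2% of peaks. Integrated stress response genes had 18 of 85 (21.2%), with 6 in XPOT and 3 in SESN2. By genes this list stood at the background, with 9 of 22 (40.9%). Heat shock protein genes had 15 of 66 (22.7%), with 9 in HSPA4 and 6 in BAG3. Cholesterol synthesis genes had 12 of 43 (27.9%), with 4 in HMGCS1. Common fragile site genes, very long genes prone to breakage, had 4 of 21 (19%), 2 of them in RORA. Of the 6 genes whose elongation the study followed singly, OPA1 had 1 doxycycline-only peak of 24 tags. CTNNBL1, IFT80, ITPR1 and KIFAP3 had doxycycline peaks and none of the set, and EFNA2 had no peak in either list.

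HEK293 identity genes gave no doxycycline-only peak. VIM had 832 tags in peaks with doxycycline and 748 without, KRT8 had 242 and 382, and KRT18 had 56 and 59, while CDH2 and PAX2 had peaks without doxycycline alone and NEFM in neither list. Of 7 markers of other lineages, 1 had a doxycycline peak, a shared peak of 13 tags at APOA1. ALB, HBG1, HBE1, PTPRC and KRT5 had no peak.

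Chromosomes differed in their share of doxycycline-only peaks. Among chromosomes 1 to 22 and X it was lowest on chromosome 16, 26.5% (23.7 to 29.5) of 884 doxycycline peaks, followed by chromosome 19 (29.3%), 3 (29.5%) and 11 (30.6%). It was highest on chromosome 21, 49.3% (45.4 to 53.2) of 619, followed by 10 (47.3%) and 15 (45.8%). The tags of shared peaks also differed between chromosomes. Over 16926 pairs of peaks that were each other's partner, the median tag ratio, doxycycline over no doxycycline, was 1.19 (1.18 to 1.20). It was 1.03 on chromosome 16, 1.04 on 3 and 1.08 on 11, against 1.31 on 10 and on 15 and 1.27 on 21. Among the other chromosomes some followed this order, such as 4 (32.5%, ratio 1.02) and 5 (41.2%, ratio 1.23), and some did not. Chromosome 19 (29.3%), 22 (38.0%) and X (37.2%) had ratios of 1.27, 1.28 and 1.27, and chromosomes 2 (44.5%), 18 (44.5%) and 20 (41.5%) had 1.18, 1.14 and 1.13. The part of chromosome-wide tag differences in the doxycycline-only share was not tested.

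**Figure D5:**
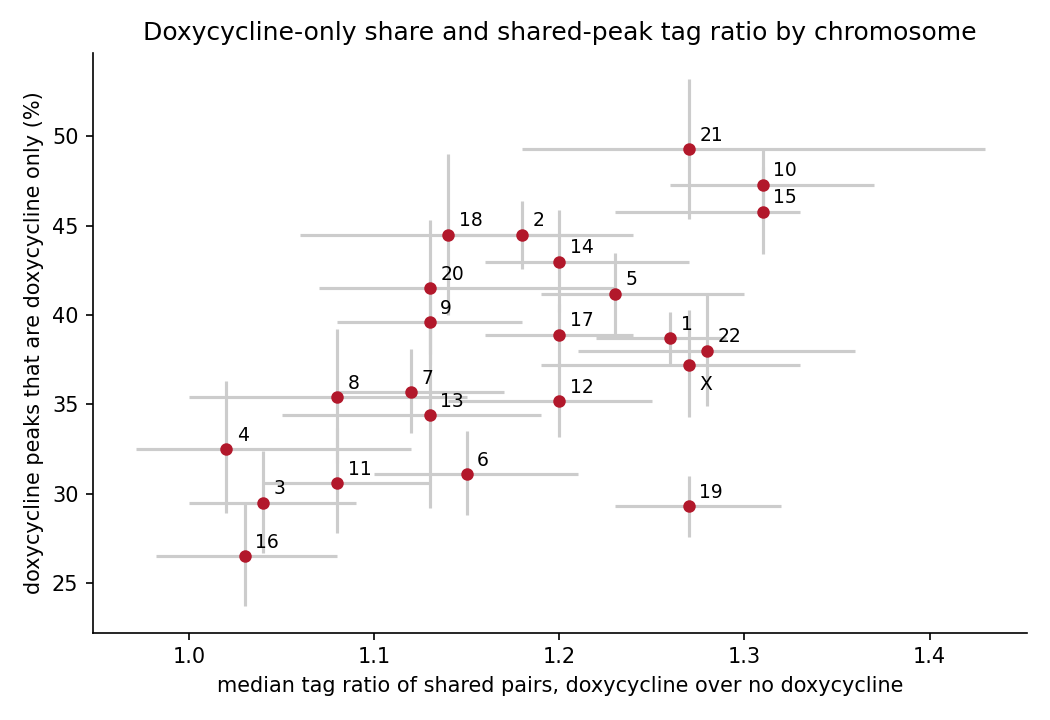
Share of doxycycline peaks that were doxycycline-only (y axis, %) against the median tag ratio of shared peak pairs, doxycycline over no doxycycline (x axis), for chromosomes 1 to 22 and X. Points are chromosomes of the same pair of libraries and whiskers are 95% intervals. Chromosomes 16, 3 and 4 lie at ratios of 1.02 to 1.04 with 26.5% to 32.5%, chromosomes 10, 15 and 21 at 1.27 to 1.31 with 45.8% to 49.3%, and chromosome 19 at 1.27 with 29.3%.

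At a finer scale, 505 windows of 2 Mb held at least 20 doxycycline peaks. The doxycycline-only share had a median of 40% over them, and windows ranged from 16.0% at the 5th percentile to 64.2% at the 95th.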

How the data were processed

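RNAPII was immunoprecipitated from HEK293 cells cross-linked in 1% formaldehyde and sequenced on an Illumina GAIIx as 36 bp reads, 1 library per group. Per the labels and the submitters' processing notes, the authors used CASAVA 1.8, aligned with Bowtie 0.12.7 to hg19, removed blacklisted reads and called peaks with MACS 1.4.2 for each RNAPII library against IgG. The deposited tag count of a peak is an unnormalised count. The deposited significance score is the negative log10 of the p-value multiplied by 10, fold enrichment is the authors' ratio over local background, and the authors gave the false discovery rate in percent. For both doxycycline lists the IgG library named in the labels is the same, from untreated cells. Library totals are not in the peak lists.

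Overlaps (1 bp), positions and AT content were computed in Python 3.11.15 with pandas 2.3.3 and pysam 0.24.0, using GENCODE release 44 lifted to GRCh37, and checked on simulated intervals. A gene held a peak lying within 500 bp of it, and for tables by gene length and TSS a peak was assigned where its summit lay in a single gene. Members and gene lists were chosen with earlier results of these data known. Named genes were the 10 strongest peaks, the 10 genes with most peaks, the 10 with most tags lacking a no-doxycycline peak, up to 4 genes per list, and the 3 peaks on either side of the overlap limit. RECQL5 and the 6 genes followed singly were added, and the 10 strongest promoter-proximal peaks, the shares by gene length, the TSS ratios and the replication list were chosen after values were seen. Alternatives to overlap, thresholds, list length, chromosomes and annotation are given at the end. Some named genes and sequences that these rules select are not reported here.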

Additional observations from a re-analysis of the deposited data

How the results depend on the processing

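With 1 library per group, no library could be left out and no difference between conditions could be tested. No paired analysis was possible because every group had 1 library. The peak lists give no depth outside peaks, so a site without a peak may still hold tags below the calling limit. The 10 values recomputed were, in this order, the doxycycline-only share, its overlap with the control, shRNA5, shRNA7 and no hairpin list, the promoter-proximal, gene-body and other shares, the median AT content and the median score (38.2%, 3.60%, 32.9%, 47.3%, 46.5%, 5.42%, 85.6%, 8.99%, 58.1% and 62.4 as reported). With at least 50% of both peaks required, they were 61.5%, 11.6%, 46.7%, 57.8%, 33.9%, 11.0%, 79.6%, 9.39%, 56.6% and 68.7. With summits within 500 bp as shared, they were 50%, 11.2%, 43.6%, 54.4%, 37.6%, 8.96%, 81.6%, 9.42%, 57.2% and 67.7. With no no-doxycycline peak within 1 kb, they were 24.7%, 1.41%, 25.5%, 39.7%, 55.0%, 5.12%, 85.6%, 9.25%, 58.8% and 60.8. At a score of at least 100 they were 12.8%, 6.39%, 48.7%, 62.3%, 28.9%, 5.27%, 89.1%, 5.64%, 59.0% and 126. At a fold enrichment of at least 10 they were 16.0%, 3.57%, 37.1%, 51.1%, 42.2%, 7.35%, 85.5%, 7.13%, 56.9% and 86.2. Against the no-doxycycline list cut to its 33900 strongest peaks, they were 43.9%, 4.04%, 35.0%, 49.5%, 44%, 6.04%, 84.8%, 9.11%, 57.9% and 63.2. With a TSS window of 1 kb the promoter-proximal, gene-body and other shares were 7.80%, 83.4% and 8.83%, by summit alone 4.04%, 86.2% and 9.72%, and with all annotated transcripts 16.5%, 78.7% and 4.83%. AT content of the peak itself was 59.0%. On chromosomes 1 to 22 and X alone the 10 values were as reported to the digits given. Of the 80 recomputed values, 60 left the interval of the reported value and 20 did not. The doxycycline-only share, the control overlap, the share in no hairpin list, the promoter-proximal and other shares and the median score each moved by over 1.5 times under some of these choices, whose construction changes which peaks are kept or how they are placed, while gene-body peaks remained the most common class in each.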

Other observations

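Among 747 genes with at least 10 doxycycline peaks, the median share of doxycycline-only peaks was 47.6%, with quartiles of 27.3% and 66.1%. In 28 of them it was 0, and in 70 it was 80% or more. PARD3, a cell polarity gene of 706 kb, had the highest share, with 10 of 10, but 25 other peaks were called in it without doxycycline, none of which overlapped the 10. GIGYF2 (17 of 18 doxycycline-only, 13 peaks without doxycycline), USP34 (12 of 13, 33 without) and KDM5B (11 of 12, 8 without) also had unshared peaks in both lists. A high share thus came with few no-doxycycline peaks in DNAH17 (39 of 40, 2 without) and with many in PARD3 and USP34. These genes were chosen after their values were seen.

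Doxycycline-only peaks found in all 3 hairpin lists included introns of RPF2 (129 tags), PGS1 (102 tags), SMC3, a cohesin subunit (103 tags), GPBP1 (95 tags) and CHD2, a chromatin remodeller (56 tags). The PGS1 peak lay 1.68 kb from a no-doxycycline peak of 16 tags, and the SMC3 peak 0.0160 kb from one of 20 tags. The 369 such peaks had a median score of 71.5 (68.7 to 75.6), and the 6019 in no hairpin list had 59.0 (58.7 to 59.4).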
